A study of Mus musculus with 22 samples.

Results

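The adipocyte genes are 10 genes that fat cells use strongly: Adipoq, Lep, Retn and Cfd, which encode secreted proteins, Plin1, Plin4 and Cidec, which encode proteins of the lipid droplet surface, Fabp4, Lipe and Pparg. They were taken by name from the table of all 46882 genes and not by a ranking of values, but with earlier results of these data known. RNA of 16 libraries was compared: 2 of MC38 cells, 2 of normal skin and 12 of tumors. The question put to these genes was how far a subcutaneous tumor piece, and the cultured cells it grew from, carry the signal that skin with its fat layer carries, and which of the 10 genes are also read where the others are not.

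MC38 is a mouse colon carcinoma line of C57BL/6 origin that had been chemically induced. The labels give the cells the strain background C57BL/6N and day 0, and do not say whether the 2 libraries came from separate cultures. The tumors grew from these cells after injection under the skin of the left flank of mice aged 8 to 12 weeks. Hosts were wild-type C57BL/6N mice, with 3 tumors of day 23 and 3 of day 46, and mice labelled RAG1-/- (B6.129S7-Rag1tm1Mom/J), a whole-body deletion that leaves a host without mature T and B cells, with 3 tumors of day 13 and 3 of day 23. No group received an agent, and every tumor came from the same injected line. The skin was labelled wild-type C57BL/6N of day 23, from mice of the same age range. RNA was made from 1 piece of each tumor, which holds carcinoma cells together with the host's vessels, immune cells and surrounding tissue.

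White fat cells store triglyceride in a single large droplet coated by perilipins and fused by CIDE proteins, and release it through a chain of lipases that includes hormone-sensitive lipase, the product of Lipe. The nuclear receptor PPARgamma, encoded by Pparg, drives the formation of these cells together with C/EBPalpha. Fat cells also secrete hormones such as adiponectin and leptin. Several of these genes are not limited to fat: Fabp4 is well known in the endothelium of small vessels and in macrophages, Pparg in macrophages and sebaceous glands, Cfd in some myeloid cells and Lipe in steroid-producing cells.

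Reads on genes numbered 5589151 to 26134241 per library, with a median of 11592000. Values are normalized counts, that is, reads on a gene divided by a size factor of the library, and 3 reads, taken as the floor, stood at 1.33 to 6.38 normalized counts. Intervals and floors cover counting error only. Replicates of a group differed by more than counting error. Rag1, the gene deleted in the mice labelled RAG1-/-, was read in all 6 tumors with that label (1 to 12 reads) and in 1 wild-type tumor (1 read). This goes against that label if the counted reads lie in the deleted part, which was not checked here, so these tumors are called by their label throughout. The summed level of 6 T cell genes ran the way the label says. It was 17.6 to 209 normalized counts in wild-type tumors and 1.11 to 19.1 in those labelled RAG1-/-. By limma 4 of the 5 tested genes were higher in wild-type tumors (background 0.570% of 14746 genes). These genes reached the mean of 5 normalized counts needed for testing mostly through wild-type tumors, which fixes their direction, so the count is a description. Ddx3y, a gene of the Y chromosome, stood at 1803 and 1919 normalized counts in skin and at no more than 1.07 elsewhere, while the study's methods name female mice as tumor hosts. The skin therefore goes against the sex given for the tumor hosts, and a difference between skin and tumors cannot be told apart from one between these mice.

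RefSeq promoter windows (GRCm38.p6, 250 bases upstream of a start) matched 9 of the 10 genes, all but Fabp4, in 13 windows. Those of Adipoq, Plin1, Lep and Pparg are shown because the level of Plin1 went with that of Adipoq among tumors, Lep is the least read of the 10, and Pparg is the factor that acts on the others. They are printed 5′ to 3′ on the strand of the gene, and capitals mark the letters TTGCNNAA, a form of the C/EBP recognition sequence, searched on both strands.
Adipoq, chr16:23146286-23146535, plus strand: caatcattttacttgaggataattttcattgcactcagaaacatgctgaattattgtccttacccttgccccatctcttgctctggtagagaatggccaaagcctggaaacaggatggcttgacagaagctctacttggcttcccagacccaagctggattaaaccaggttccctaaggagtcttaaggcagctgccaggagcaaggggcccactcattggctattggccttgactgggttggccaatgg
Plin1, chr7:79732777-79733026, minus strand: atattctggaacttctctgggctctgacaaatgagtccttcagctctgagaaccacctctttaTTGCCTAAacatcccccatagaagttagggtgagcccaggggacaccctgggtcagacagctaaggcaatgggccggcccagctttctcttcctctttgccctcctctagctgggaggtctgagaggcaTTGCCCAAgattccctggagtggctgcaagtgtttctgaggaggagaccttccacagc
Lep, chr6:29059971-29060220, plus strand: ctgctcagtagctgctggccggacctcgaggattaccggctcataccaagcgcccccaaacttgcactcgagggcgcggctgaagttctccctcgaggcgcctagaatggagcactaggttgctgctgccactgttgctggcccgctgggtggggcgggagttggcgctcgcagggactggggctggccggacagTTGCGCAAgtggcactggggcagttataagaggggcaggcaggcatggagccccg
Pparg, chr6:115421816-115422065, plus strand: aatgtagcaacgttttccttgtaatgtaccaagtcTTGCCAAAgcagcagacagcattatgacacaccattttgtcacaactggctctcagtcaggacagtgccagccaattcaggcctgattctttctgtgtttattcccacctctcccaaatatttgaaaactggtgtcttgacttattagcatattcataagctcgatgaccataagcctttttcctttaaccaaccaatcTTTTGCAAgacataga
The letters stood 55 bases before the start in Lep, at 187 and 58 bases in Plin1 and at 215 and 16 bases in this window of Pparg, and a window of Cidec held them at 198 bases. Thus 4 of the 9 genes had them in 4 of 13 windows, against 9.56% of all 32851 windows of this length. The direct repeat DR1, bound by PPAR and RXR receptors, was searched on both strands in its consensus form and found in 0 of the 13 windows and in 0.338% of all. TATAAA was in 1 window, another start of Pparg at 29 bases, and in 12.4% of all. These are matches of letters in a window and no binding was measured.

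Skin held all 10 genes at high levels and MC38 cells held most of them at or near 0. Among the secreted proteins, Adipoq (adiponectin, chr16:23146536-23158028) stood at 908 and 785 normalized counts in skin and at 0 in both MC38 libraries. This places skin at least 308-fold above MC38 when the MC38 level is set to the floor. Cfd (adipsin, the complement factor D protease, chr10:79890853-79892655) stood at 7594 and 6630 in skin and again at 0 in both MC38 libraries, at least 2586-fold apart. Lep (leptin, chr6:29060220-29073877) was low even in skin, at 30.8 and 10.2, and at 0 in MC38, at least 7.46-fold apart. Retn (resistin, chr8:3655770-3660110) stood at 607 and 349 in skin. It was the only secreted protein of the 4 with reads in MC38 cells, at 15.4 and 13.7 normalized counts (32 reads), 32.9-fold below skin.

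The droplet proteins separated skin from MC38 cells in the same way. Plin1 (perilipin 1, the main coat of fat cell droplets, chr7:79720218-79732903) stood at 512 and 287 in skin and at 0 in MC38, at least 145-fold apart. Plin4 (perilipin 4, chr17:56100591-56109803) stood at 466 and 476 in skin and at 0.856 and 0 in MC38, where a single read gave a ratio of 1032 with a counting interval of 185 to 40824. Cidec (chr6:113424634-113435760), which lets droplets fuse, stood at 446 and 460 in skin and at 0 and 2.93 in MC38, a ratio of 331 on 3 reads with a counting interval of 113 to 1610.

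Fabp4 (a cytoplasmic fatty acid carrier, chr3:10204088-10208576) stood at 5534 and 5423 in skin and at 9.41 and 1.96 in MC38, 964-fold apart. Pparg (chr6:115360951-115490399) stood at 350 and 362 in skin and had no read in either MC38 library, at least 129-fold apart. Lipe (chr7:25379527-25398710) stood apart from the other 9. It stood at 370 and 307 in skin and at 98.4 and 49.9 in MC38, only 4.57-fold apart. In the annotation 15.6% of the exonic bases of Lipe lie opposite exons of 4732471J01Rik, and no source used here states whether reads were counted by strand. Reads of that gene and of Lipe on those bases can then not be told apart.

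**Figure D1:**
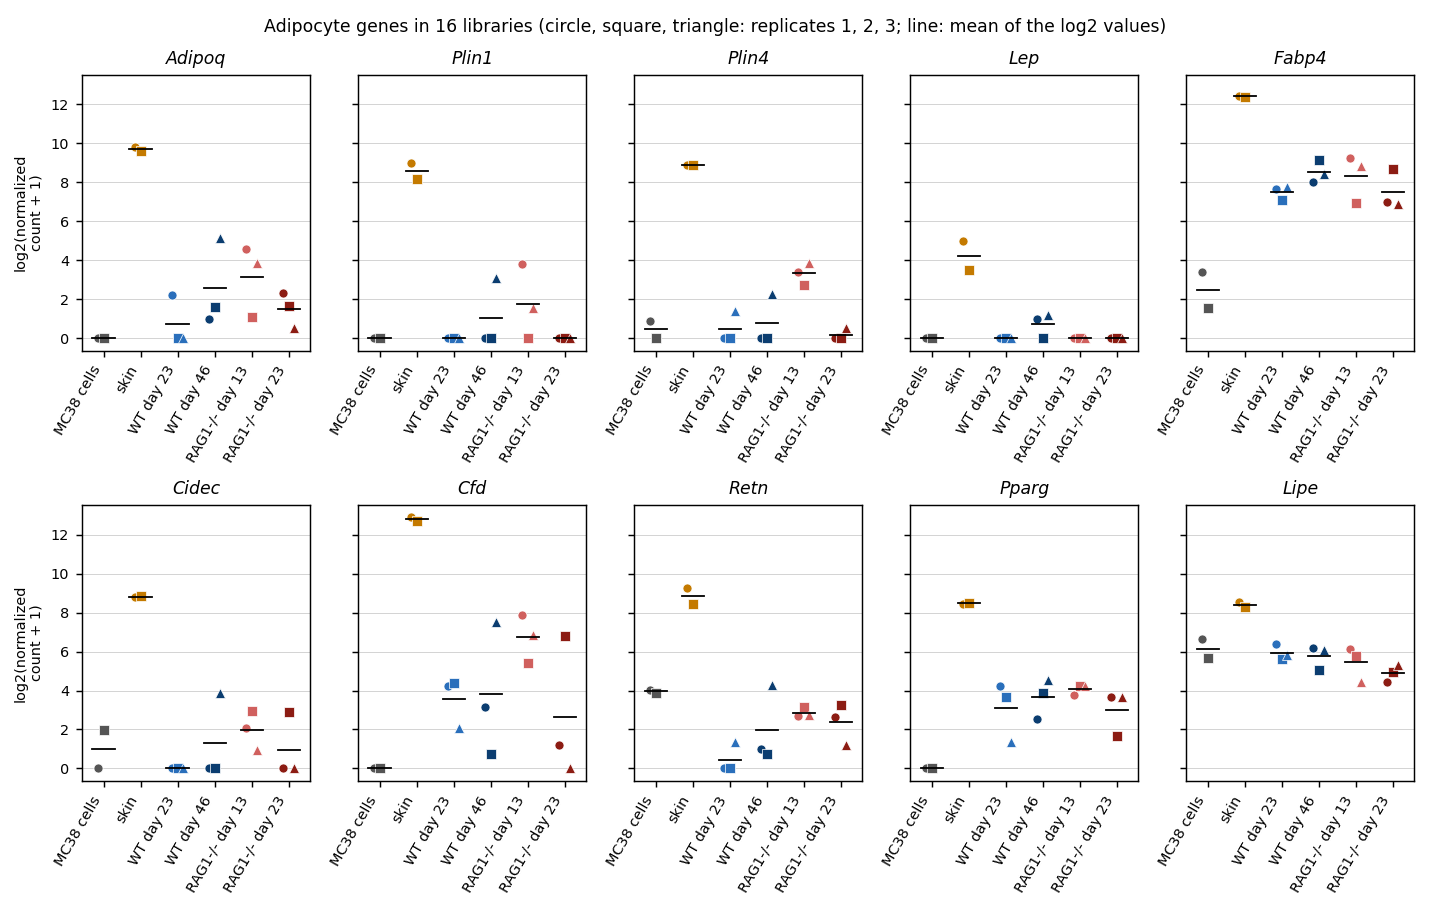
Each panel shows 1 gene, with log2(normalized count + 1) on the vertical axis, the 6 groups on the horizontal axis, 1 point per library and a line at the mean of the log2 values. Both skin libraries lie above every other library in all 10 panels. Fabp4 and Pparg lie higher in each of the 12 tumors than in both MC38 libraries, though 2 of the Pparg points rest on 1 read each. Lipe and Retn have reads in MC38.

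With limma on log2(normalized count + 1), all 10 genes were tested between MC38 cells and skin and all 10 were lower in MC38. Of all 16780 genes tested, 41.2% were lower, 20.8% higher and 62.0% either. Most of the 10 reach the required mean of at least 5 normalized counts through skin alone, so their being lower follows from passing this limit. The difference (MC38 minus skin, log2) was -9.95 ± 0.61 (SE) for Fabp4 (adjusted p = 0.000296, limma) and -2.25 ± 0.38 for Lipe (adjusted p = 0.00565), and the median difference of all genes was -0.40. Leaving out 1 skin library ended the calls of Fabp4 (adjusted p = 0.0586 without replicate 1 and 0.0574 without replicate 2), of Cidec (0.0786 and 0.0783) and of Lipe (0.154 and 0.134), with the differences still negative.

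In the tumors the 10 genes were read unevenly. Fabp4, Pparg and Lipe had reads in all 12 tumors, Cfd in 11, Adipoq and Retn in 10, Plin4 in 6, Cidec in 5, Plin1 in 3 and Lep in 2. Fabp4 and Lipe were above the floor of 3 reads in every tumor. Pparg was at or under it in 2 tumors, Cfd in 4, Retn in 6, Adipoq and Plin4 in 8, Plin1 and Cidec in 10 and Lep in 12. By tumor, 2 to 9 of the 10 genes were above the floor of 3 reads. The most were 9 in wild-type tumor 3 of day 46, followed by 8 in tumor 1 labelled RAG1-/- of day 13, and the fewest were 2 in wild-type tumor 3 of day 23, one of the shallower libraries.

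Adipoq was unevenly spread over the tumors. It stood at 3.69, 0 and 0 normalized counts in wild-type tumors 1, 2 and 3 of day 23, and at 0.977, 2.01 and 34.5 on day 46. The tumors labelled RAG1-/- had 22.5, 1.11 and 13.3 on day 13 and 3.93, 2.13 and 0.442 on day 23. Thus 3 tumors, wild-type tumor 3 of day 46 and tumors 1 and 3 of day 13, held levels over 10, the other 9 held less than 4, and all 4 groups overlapped. In bulk tissue, fewer fat cells and less RNA per fat cell cannot be told apart.

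Plin1 was read in the same 3 tumors and in no other. It stood at 7.53 in wild-type tumor 3 of day 46, on 12 reads. In tumors 1 and 3 labelled RAG1-/- of day 13 it stood at 12.8 and 1.91, on 12 and 2 reads. The value of 1.91 is under the floor of 3 reads, and no read in the other tumors does not show absence. Cidec stood at 13.8 in that wild-type tumor and at 0 in the other 5 wild-type tumors. In tumors labelled RAG1-/- Cidec stood at 3.21, 6.67 and 0.953 on day 13 and at 0, 6.38 and 0 on day 23. The reads of Cidec and Plin1 thus coincided only in part: tumor 2 of each RAG1-/- group held Cidec on 6 and 3 reads with no read of Plin1. At such read counts a difference between these genes in those tumors is not shown.

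Plin4 stood at 9.63, 5.56 and 13.3 in tumors labelled RAG1-/- of day 13. The measured values of the other 9 tumors lay between 0 and 3.77, below all 3 of them. Only 36 reads in 12 tumors lie behind these values, and the share of all genes with such an order was not computed. Tumor 2 labelled RAG1-/- of day 23 had no read at a floor of 6.38, so it cannot be placed below 5.56. Lep was read at 0.977 and 1.26 in wild-type tumors 1 and 3 of day 46, on 3 reads in all, and in no other tumor.

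Cfd ran from 0 to 237 normalized counts among the tumors. In wild-type tumors it stood at 17.7, 19.6 and 3.17 on day 23 and at 7.82, 0.671 and 183 on day 46. In tumors labelled RAG1-/- it stood at 237, 42.3 and 115 on day 13 and at 1.31, 109 and 0 on day 23. The 3 tumors with the most Adipoq also had the 3 highest levels of Cfd, and the next highest, tumor 2 labelled RAG1-/- of day 23, had Adipoq at 2.13 on 1 read. Cfd, which is also a component of the alternative complement pathway, was thus read in 11 of 12 tumors and in neither MC38 library. In 4 of the 12 tumors it was at or under the floor of 3 reads.

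Retn stood at 0, 0 and 1.58 in wild-type tumors of day 23 and at 0.977, 0.671 and 18.2 in wild-type tumors of day 46. With the RAG1-/- label it stood at 5.35, 7.78 and 5.72 on day 13 and at 5.24, 8.51 and 1.33 on day 23. Only wild-type tumor 3 of day 46 lay above the MC38 cells, and the other 11 tumors lay below both MC38 libraries.

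Fabp4 had a different spread, with no tumor near 0. It stood at 198, 136 and 217 in wild-type tumors of day 23 and at 260, 557 and 345 in wild-type tumors of day 46. With the RAG1-/- label it stood at 600, 121 and 450 on day 13 and at 124, 409 and 118 on day 23. The tumors ranged from 118 to 600, and the groups overlapped except that all 3 wild-type tumors of day 46 lay above all 3 of day 23. Fabp4 was not called between these days, and the share of all genes that separate this way was not computed.

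Pparg stood at 17.7, 11.9 and 1.58 in wild-type tumors of day 23 and at 4.89, 13.4 and 22.6 in wild-type tumors of day 46. With the RAG1-/- label it stood at 12.8, 17.8 and 18.1 on day 13 and at 11.8, 2.13 and 11.9 on day 23. The lowest values, 1.58 and 2.13, rest on 1 read each in the shallowest libraries. Lipe stood at 84.1, 47.7 and 55.5 in wild-type tumors of day 23, at 71.3, 32.2 and 67.2 in wild-type tumors of day 46, at 69.5, 54.5 and 21.0 on day 13 and at 20.9, 29.8 and 38.0 on day 23 with the RAG1-/- label. All 3 wild-type tumors of day 23 lay above all 3 tumors labelled RAG1-/- of that day. Lipe was not called between them, and the share of all genes that separate this way was not computed.

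Set against the mean of the 2 skin libraries, the 10 genes gave very unequal shares in the same tumors. Adipoq reached 4.08% of skin at most, in wild-type tumor 3 of day 46 (exact Poisson 95% interval 3.07% to 5.31%, 55 reads), and its median was 0.245%. The shares of Plin1 (at most 3.21%), Plin4 (2.83%), Cidec (3.05%), Cfd (3.34%) and Retn (3.81%) had similar upper ends. Medians over tumors were 0% for Plin1 and Cidec, 0.0469% for Plin4, 0.262% for Cfd and 0.713% for Retn. A tumor with no read allows 0.332% to 1.60% of skin for Plin1, 0.293% to 1.05% for Cidec and 0.428% to 1.36% for Plin4. The medians of Plin1, Cidec and Plin4 can thus not be placed below that of Adipoq. Lep gave 6.12% at most, on 2 reads, and a tumor with no read of Lep allows 6.47% to 31.1% of skin.

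Pparg, Fabp4 and Lipe had larger shares. Pparg had a median of 3.48% of skin (range 0.445% to 6.35%), Fabp4 of 4.35% (2.16% to 10.95%) and Lipe of 15.1% (6.19% to 24.8%). In all 12 tumors the measured shares of Fabp4, Pparg and Lipe were above that of Adipoq. For Pparg this order is not certain in every tumor. It rests on 1 read of Pparg in wild-type tumor 3 and in tumor 2 labelled RAG1-/- of day 23. The intervals of Pparg and Adipoq overlapped in others, among them wild-type tumor 3 of day 46 (4.45% to 8.79% against 3.07% to 5.31%). The highest measured share of the 10 belonged to Lipe in 10 tumors and to Fabp4 in 2, and Lep without a read cannot be ranked. In wild-type tumors 2 and 3 of day 23 no read of Adipoq was found, which allows up to 0.302% and 0.561% of skin, while Fabp4 stood at 2.49% (2.12% to 2.91%) and 3.96% (3.33% to 4.68%) and Pparg at 3.35% and 0.445%. The cultured line held Lipe reads but few of Fabp4, at 0.172% and 0.0357% of skin, and none of Pparg.

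**Figure D2:**
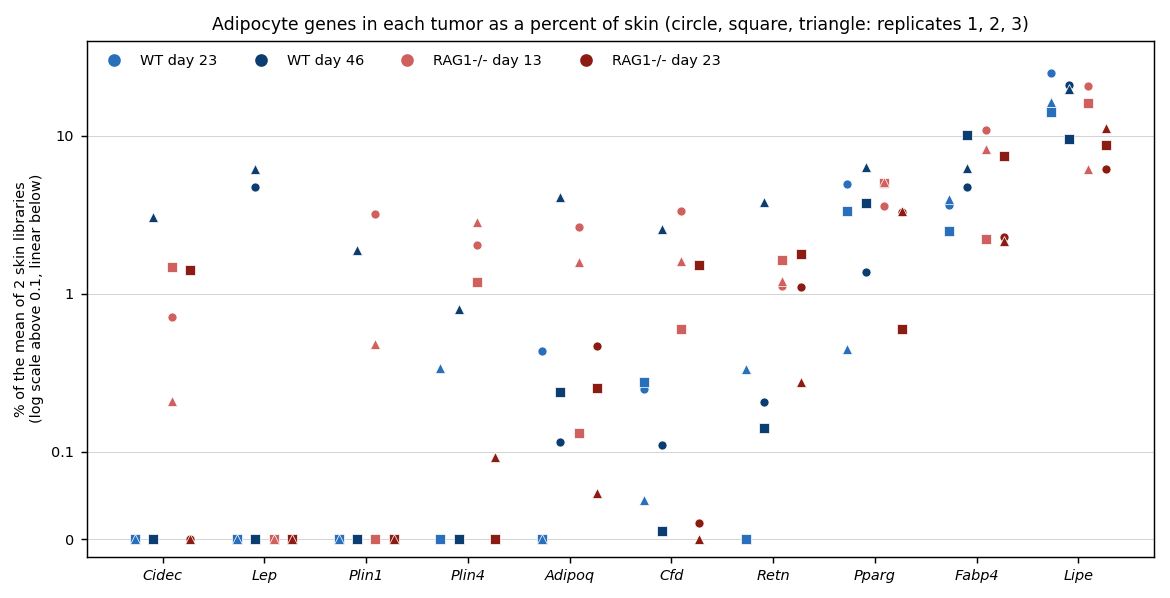
The vertical axis gives the level in each of the 12 tumors as a percent of the mean of the 2 skin libraries, on a log scale above 0.1 and a linear scale below, for the 10 genes ordered by their median. From left to right the points start mostly at 0 for Cidec, Lep and Plin1. They end between 2.16% and 24.8% in every tumor for Fabp4 and Lipe. A point at 0 is a tumor without a read. For Lep this allows 6.47% to 31.1% of skin, so its place in the order is not known.

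The fit of the 12 tumors against MC38 cells tested 6 of the 10 genes, and Plin1, Plin4, Lep and Cidec were under the limit on low values. Of the 6, 3 were higher in tumors by limma, 2 by edgeR and 3 by DESeq2 (background 18.2% of 14708 genes) and 0 were lower (background 9.43%, and 27.6% in either direction). As Pparg and Cfd had no read in MC38 cells and Fabp4 few, these 3 genes reached the limit through the tumors, which fixes their direction, so the count is a description. Fabp4 was higher by 5.50 ± 0.53 (log2, SE, adjusted p = 2.68e-07, limma), a mean of 295 normalized counts against 5.68, and all 12 tumors lay above both MC38 libraries. Pparg was higher by 3.46 ± 0.74 (adjusted p = 0.00175), with a larger measured value in 12 of 12 tumors. In 2 of these tumors Pparg was under the floor of 3 reads, on 1 read each, and cannot be told from the MC38 level. Because neither MC38 library had a Pparg read, the mean of the tumors was at least 4.45-fold above the MC38 floor. Both calls held under every alternative in which the gene was tested.

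Cfd was higher by 4.19 ± 1.44 (adjusted p = 0.0385), and at least 22.3-fold above the MC38 floor by the mean. It had reads in 11 of 12 tumors but was at or under the floor in 4 of the 12. The Cfd call depended on single libraries. The adjusted p was 0.199 and 0.216 without MC38 replicate 1 or 2, 0.0546 and 0.0553 without wild-type tumor 1 or 2 of day 23, and 0.0569 and 0.0519 without tumor 1 or 3 labelled RAG1-/- of day 13. It ranged from 0.00455 to 0.216 over the 23 alternatives.

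Adipoq, Retn and Lipe did not pass between tumors and MC38 cells. Adipoq differed by 1.99 ± 1.07 (adjusted p = 0.185), Retn, the only gene of the 3 with an unadjusted p under 0.05, by -2.04 ± 0.84 (adjusted p = 0.0817) and Lipe by -0.63 ± 0.43 (adjusted p = 0.301). Without wild-type tumor 3 of day 46, the tumor with the most Retn, the difference of Retn was -2.32 and passed (adjusted p = 0.0216).

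Against skin, 9 of the 10 genes were tested and all 9 were lower in the tumors (background 36.3% of 16259 genes, with 24.4% higher and 60.7% in either direction), with a median difference of all genes of -0.19. Lep was under the limit on low values. As with MC38 cells, passing the limit through the high skin level fixes this direction. The smallest difference belonged to Lipe, -2.88 ± 0.43 (log2, adjusted p = 4.45e-05, limma), followed by Fabp4, -4.45 ± 0.51 (3.60e-06), and Pparg, -5.02 ± 0.71 (2.81e-05). The other 6 differed by -6.93 for Retn to -8.61 for Cfd. The 2 skin libraries also carried 137265 and 207682 summed normalized counts of 12 skeletal muscle genes, against 78.7 to 12304 in tumors. Skin as a piece of tissue thus held muscle as well as fat, and the part of these other tissues in the shares was not tested.

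Wild-type tumors and tumors labelled RAG1-/- did not separate in these genes. Over both days 5 genes were tested and 0 were called by limma, with 0 at an unadjusted p under 0.05 and 0 by edgeR and DESeq2 (background 0.712% of 14746 genes, 0.570% higher and 0.142% lower). The difference (wild-type minus RAG1-/- labelled, log2) was 0.09 ± 0.38 for Fabp4, -0.17 ± 0.56 for Pparg, -0.67 ± 0.83 for Adipoq, -1.02 ± 1.14 for Cfd and 0.68 ± 0.33 for Lipe. Plin1, Plin4, Lep, Cidec and Retn were under the limit on low values. With no filter, Plin4 differed by -1.14 (unadjusted p = 0.0272, adjusted p = 0.521, limma) and Retn by -1.38 (unadjusted p = 0.0477, adjusted p = 0.615). Plin1, Lep and Cidec then had an unadjusted p over 0.05. In the two-sided exact permutation test of 6 against 6 tumors the smallest p of the 10 genes were 0.0736 for Retn (mean 3.57 against 5.65 normalized counts) and 0.0758 for Lipe (59.7 against 39.0). All 10 genes overlapped between the hosts, and the share of all genes that overlap was not computed. The errors are wide enough that several-fold differences in Adipoq or Cfd would not have been detected.

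At the shared time point, day 23, 0 of 5 genes were called by limma, edgeR or DESeq2 (background 0.278%, 0.231% higher and 0.0475% lower), and Lipe, 1.05 ± 0.46 higher in wild-type, had an unadjusted p of 0.0379 (adjusted p = 0.418, limma). For wild-type tumors 0 of 5 were called by limma, edgeR or DESeq2 between days 46 and 23 (background 0%, with 0 of the 5 and 1261 of all 14746 genes at an unadjusted p under 0.05). Fabp4 differed by 1.02 ± 0.53 (adjusted p = 0.624, limma). With the RAG1-/- label 0 of 5 were called by limma, edgeR or DESeq2 between days 23 and 13 (background 0%, with 1 of the 5, Cfd, and 1722 of all genes at an unadjusted p under 0.05). Cfd differed by -4.07 ± 1.61 (adjusted p = 0.344, limma). Day and host overlap only at day 23, so the day 13 and day 46 tumors cannot separate time from host.

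The genes were next compared tumor by tumor. Over the 12 tumors the level of Plin1 went with that of Adipoq (Pearson r = 0.87, Spearman rho = 0.75, permutation p = 0.00159, adjusted p = 0.0183 over the 23 relations computed). Within the 6 wild-type tumors r was 0.89 (exact permutation p = 0.167) and within the 6 labelled RAG1-/- it was 0.88 (exact permutation p = 0.0333). Plin1 had reads in 1 and 2 of these tumors, so both p are the smallest these tests can give, and they decide little. Without the 2 tumors farthest from the median of Adipoq, wild-type tumor 3 of day 46 and tumor 1 of day 13, r was 0.72, with a single tumor then holding Plin1. The relation rests on the 3 tumors with reads of Plin1.

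Cfd (r = 0.66, rho = 0.61, permutation p = 0.0208, adjusted p = 0.108), Retn (r = 0.63), Plin4 (r = 0.60), Fabp4 (r = 0.59), Cidec (r = 0.57), Pparg (r = 0.51) and Lep (r = 0.34) did not pass after adjustment. Without those 2 tumors r was 0.45 for Fabp4, 0.43 for Pparg, 0.41 for Plin4, 0.40 for Retn, 0.40 for Cfd, 0.15 for Cidec and -0.13 for Lep. Lipe had r = 0.03 with Adipoq (rho = -0.03, permutation p = 0.930). For Lipe r was -0.52 without them.

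Markers of the tissues around a tumor differed among the same tumors. The summed level of 12 skeletal muscle genes was 11337 and 12304 normalized counts in tumors 1 and 3 labelled RAG1-/- of day 13, 1906 and 1837 in wild-type tumors 2 and 3 of day 46, and 78.7 to 1106 in the other 8. Acta1, the actin of skeletal muscle, stood at 4374 and 4965 in the first pair. With Adipoq the muscle sum had r = 0.71 (rho = 0.54, permutation p = 0.0108, adjusted p = 0.0831), and 0.61 without the 2 tumors above. All 3 tumors with over 10 normalized counts of Adipoq were among the 4 with the largest muscle sums. Wild-type tumor 2 of day 46 had a muscle sum as large as tumor 3 of that day with Adipoq at 2.01. The part of muscle and of its surrounding tissue in the Adipoq values was not tested.

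Sums of skin markers had no relation with Adipoq that passed. For keratinocyte genes r was -0.40 (permutation p = 0.206, adjusted p = 0.316) and for sebaceous gland genes -0.48 (permutation p = 0.113, adjusted p = 0.217). For the keratinocyte genes r was -0.52 within wild-type tumors and 0.51 within those labelled RAG1-/-. The sum of 10 keratinocyte genes was highest in wild-type tumor 2 of day 23, at 2340 normalized counts, where Krt5 stood at 136 and Krtdap at 241, against 298 to 857 in the other 11 tumors. That tumor had no read of Adipoq, Plin1 or Cidec. The sum of 8 sebaceous gland genes was 5.65 to 63.1 in tumors against 43061 and 37347 in skin. It was thus at most 0.157% of skin, and the part of sebaceous glands in the Pparg values, a gene they also use, was not tested.

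The level of Fabp4 over the 12 tumors went with the summed level of 8 endothelial genes (r = 0.89, rho = 0.82, permutation p = 0.00015, adjusted p = 0.00345 over the 23 relations). Among wild-type tumors alone r was 0.93 (exact permutation p = 0.00694) and among those labelled RAG1-/- it was 0.91 (exact permutation p = 0.025). Without the 2 tumors farthest from the median of Adipoq r was 0.90. With the muscle sum Fabp4 had r = 0.65 (rho = 0.51, permutation p = 0.0235, adjusted p = 0.108), and 0.52 without the same 2 tumors. With the sums of fibroblast, neutrophil, keratinocyte, sebaceous and macrophage genes r was 0.49, 0.47, -0.28, -0.35 and -0.12, none of which passed. These sums were set against Fabp4 and Adipoq after values had been seen.

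The endothelial genes (Pecam1, Cdh5, Kdr, Tek, Emcn, Cldn5, Vwf and Esam) all had reads in every tumor. Their sum was 590 to 1604 normalized counts in tumors, 1984 and 1896 in skin, and 9.41 and 14.7 in MC38. As a share of skin it was 30.4% to 82.7%, above the 2.16% to 10.95% of Fabp4. The 10 macrophage genes summed to 16059 to 33363 in tumors, 128% to 267% of skin. As a share of skin, Fabp4 was thus below both lists. Which cells carry Fabp4 in these tumors cannot be told apart in bulk RNA.

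**Figure D3:**
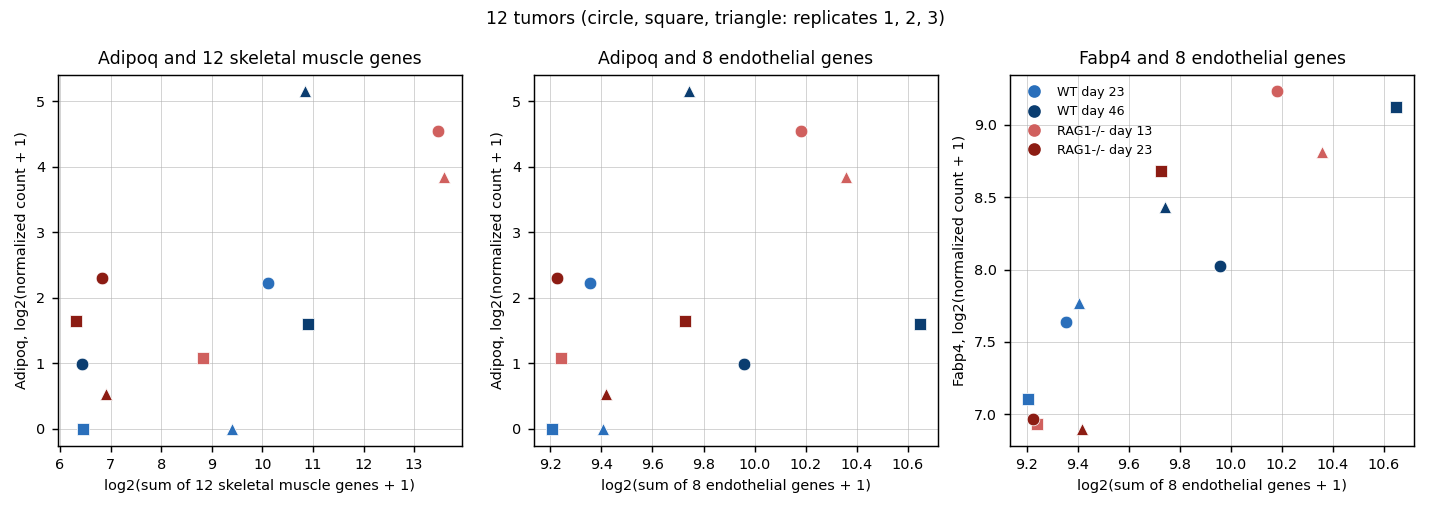
Each point is 1 of the 12 tumors, with log2(normalized count + 1) of Adipoq or Fabp4 on the vertical axis and the log2 of a summed marker list on the horizontal axis. Fabp4 rises along the endothelial sum (r = 0.89), while Adipoq is spread widely over it (r = 0.45) and has its 3 highest points among the 4 tumors with the largest muscle sums.

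Relatives of the 10 genes within their families were partly read in all samples. Plin2 (the perilipin of small droplets in most cells) stood at 1600 and 1694 in MC38, at 1922 to 4041 in tumors and at 4402 and 2263 in skin. It was higher in tumors than in MC38 by 0.93 ± 0.17 (log2, adjusted p = 0.000465, limma), and its median over tumors was 97.9% of skin. Plin3, also widely used, stood at 513 to 727 in tumors, and Plin5, the perilipin of oxidative tissue, had no read in any tumor. Fabp5, the carrier of epidermis and many other cells, stood at 603 and 595 in MC38, at 507 to 1692 in tumors and at 13731 and 9047 in skin. Fabp3, the heart and muscle carrier, was highest at 13.9 and 26.7 in the 2 tumors with the most muscle RNA and stood at no more than 4.43 in the others.

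Of the PPAR receptors, Ppard, which most cells use, stood at 233 and 305 in MC38 and at 92.0 to 206 in tumors, a difference of -0.88 ± 0.27 (log2, adjusted p = 0.0229, limma), whereas Pparg went the other way. Ppara stood at no more than 11.8 in any tumor. Cidea, which brown fat and sebaceous glands use, stood at 1893 and 2343 in skin, where Ucp1, the defining gene of brown fat, had 0 and 6.37, and at no more than 1.11 in tumors. In the resistin family, Retnla, a gene of alternatively activated macrophages and fat tissue, reached 29.5 in wild-type tumor 3 of day 46, the tumor with the most Retn, and was at 0 in both MC38 libraries. Among the lipases, Mgll and Lpl were nearly absent in MC38 (0 and 4.89, 1.71 and 0) and read in all tumors, at 17.8 to 165 and 91.2 to 496. Pnpla2, the first enzyme of the lipolytic chain, stood at 153 and 148 in MC38 and at 96.3 to 252 in tumors, so that, like Lipe, it was read in the line itself.

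**Figure D4:**
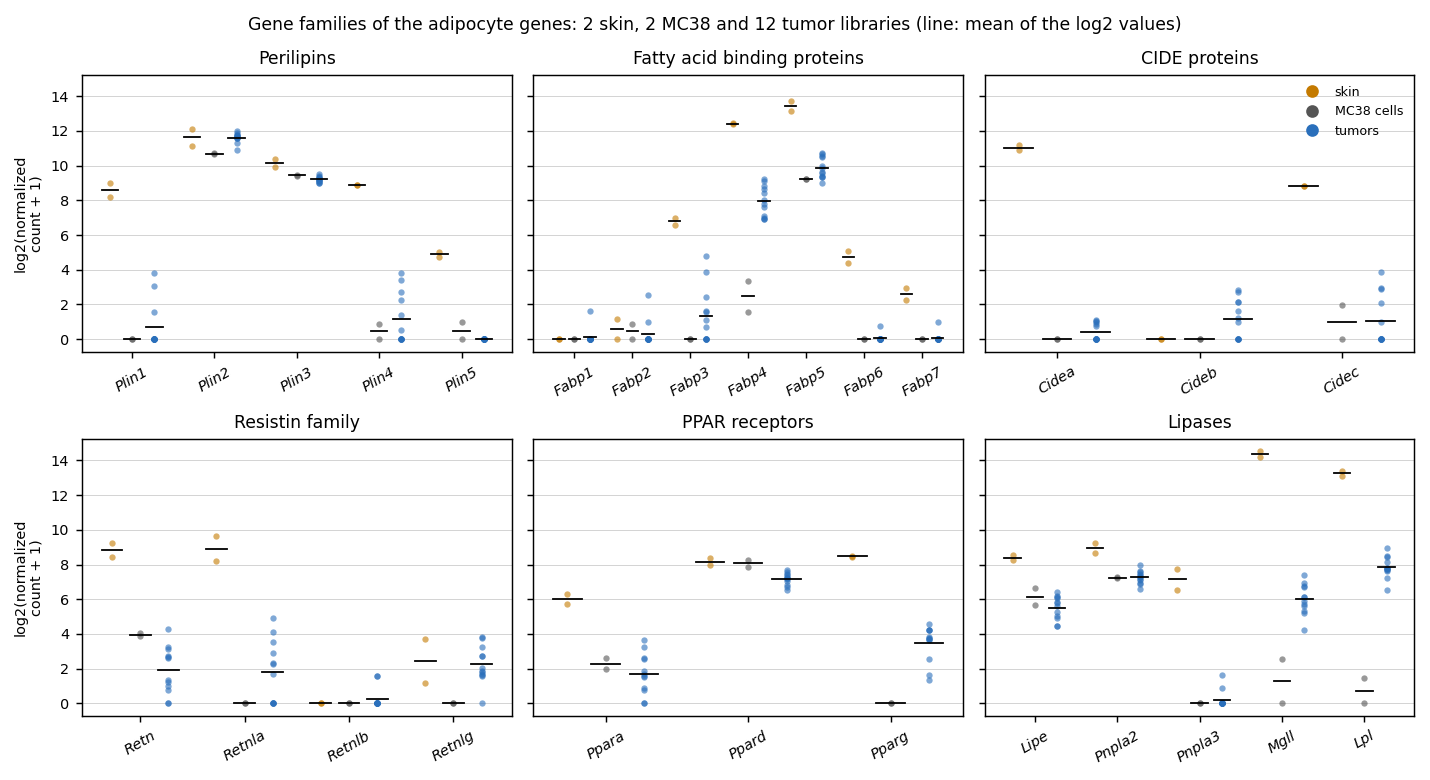
Each panel is a gene family, with log2(normalized count + 1) on the vertical axis, 1 point per library for skin, MC38 cells and tumors, and lines at the mean of the log2 values. Plin2, Plin3, Fabp5, Ppard, Pnpla2 and Lipe have points in all 3 sample types, whereas Plin1, Plin4, Cidea, Cidec and Pnpla3 are high in skin libraries only and Lpl, Mgll and Fabp4 take a middle level in tumors.

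The receptors of the adipokines were read in all tumors or most of them. Adipor1 and Adipor2, the adiponectin receptors, had means of 1167 ± 174 and 1012 ± 136 normalized counts (SD, n = 12 tumors), and both were read in MC38 cells at 695 to 871. Cdh13, a cadherin of vessels that binds adiponectin, had no read in MC38 and stood at 53.9 to 243 in tumors. Lepr, the leptin receptor, stood at 0 to 42.6, highest in tumor 2 labelled RAG1-/- of day 23. The tumors thus held RNA of both adiponectin receptors, also the 9 in which Adipoq was under 4 normalized counts.

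A further 52 genes of fat metabolism were followed as lists. Between MC38 cells and skin 40 of 52 were lower and 2 higher, against 41.2% and 20.8% of all genes, with a median difference of -3.67 against -0.40 for all. Many of these genes are at or near 0 in MC38 cells and were tested through their skin level, which fixes their direction here and, for those low in tumors, in the next comparison. Between tumors and skin 41 of the 51 tested were lower and 4 higher (Pde3b, Sdpr, Npr3 and Angptl4, named after their values were seen), against 36.3% and 24.4% of all genes. Between tumors and MC38 cells 13 of the 38 tested were higher, 7 lower and 18 neither, against 18.2% higher and 9.43% lower of all genes, with a median difference of 0.02 against 0.05. Of 13 tested genes of fatty acid and triglyceride synthesis, 0 were higher and 6 lower by limma, among them Fasn, fatty acid synthase, by -1.03 ± 0.21, and Me1, malic enzyme, by -0.61 ± 0.15. At an unadjusted p under 0.05 this list had 8 genes in either direction, against 5611 of all 14708.

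Of the 6 tested genes of uptake, 3 were higher in tumors than in MC38 and 0 lower by limma, with 4 at an unadjusted p under 0.05, and of the 8 tested transcription factors 4 were higher and 1 lower, against 18.2% higher and 9.43% lower of all genes. Genes near 0 in MC38, such as Lpl and Cd36, were tested through their tumor level, which fixes their direction. The difference between these lists was not tested. Lpl, which frees fatty acids from lipoproteins at the vessel wall, was higher by 7.12 ± 0.38 (log2, adjusted p = 7.45e-11, limma) and Angptl4, its inhibitor, by 2.73 ± 0.28 (adjusted p = 4.76e-07). Lpl reached 0.931% to 5.06% of skin. Angptl4 was also above skin, at 276 to 816 normalized counts in tumors against 213 and 117. Cd36, a fatty acid receptor, and Cebpa, the partner of Pparg in fat cells, are named after their values were seen. Both were at 0 in MC38 and at 1.44% to 14.5% and 1.63% to 8.09% of skin in every tumor, while Fabp4 held 2.16% to 10.95%. Car3, a carbonic anhydrase of fat and muscle also named after its values were seen, stood at 296 and 696 in tumors 1 and 3 labelled RAG1-/- of day 13, at 156 in wild-type tumor 3 of day 46 and at 1.31 to 79.9 in the others. Between hosts 0 of 39 tested genes of these lists were called by limma (background 0.712%), with 3 at an unadjusted p under 0.05, against 1682 of all 14746 genes.

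Across the 12 tumors, the genes outside the lists with the pattern most like the mean of Adipoq, Plin1 and Cidec were sought among 14631 genes by Pearson r on log2 values. The 8 highest were Map2k3 (0.84), Tstd3 (0.84), Pramef12 (0.83), Urb2 (0.83), Edc3 (0.83), Pet2 (0.82), Adck3 (0.82) and Cdk10 (0.81). They are the top of a ranking of 14631 genes over 12 tumors. How many genes reach such r by chance was not computed, so a shared pattern is not shown. Pet2 and Pramef12 stood at 398 and 433 in wild-type tumor 3 of day 46 and at no more than 11.8 and 75.9 in the other tumors. Map2k3 stood at 1226 to 2167 normalized counts in tumors and at 2485 on average in MC38, above the tumor range. Pet2 and Urb2 were no higher in skin than in MC38, at means of 0 against 3.61 and 107 against 227. Adck3 (317 against 9.10) and Tstd3 (163 against 28.7) were higher in skin. The pattern they were ranked against holds few reads outside 3 tumors.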

How the data were processed

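RNA of 22 samples was labelled in the series, and 16 libraries were analysed. Libraries were prepared with QuantSeq, which reads transcripts near the 3′ end, and sequenced on an Ion Proton. Per the study's methods and the labels, the authors trimmed reads with Cutadapt and Trimmomatic, removed those under 22 nucleotides, aligned them to mm10 with STAR and Bowtie2, counted reads per gene with HTSeq and divided the counts by DESeq2 size factors. The deposited signal is this normalized count. Reads near the 3′ end do not scale with gene length. Levels of different genes were added in the sums of marker lists, but no test ranked genes by level. For the shares, a gene's level was set against its own skin level. Versions, annotation and strand setting are not given in the sources used here. Values of each library were whole multiples of 1 step (tolerance 0.001), so reads were recovered. The 6 columns of a second table match no label and were not used.

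The main test was limma 3.58.1 (R 4.3.3) with a mean-dependent trend on log2(normalized count + 1), over genes whose mean reached 5 normalized counts in the libraries compared, two-sided, Benjamini-Hochberg adjusted over all genes tested, threshold 0.05. The 12 tumors shared 1 estimate of spread over 4 groups. Where nothing says that libraries came from separate cultures or animals, p-values measure the spread between these samples only. edgeR 4.0.16 and DESeq2 1.42.0 on recovered reads were alternatives, with pseudocounts of 0.1 and 5, no filter, a mean of at least 20, 2 rescalings, the replicate number as a block and each replicate left out. Permutation tests used 100000 resamples, or all arrangements with 6 tumors. The tests were checked on simulated reads. Gene positions follow GENCODE on GRCm38, the build of mm10, and promoter windows follow RefSeq on GRCm38.p6. All 10 genes, all members of their families, up to 4 genes of each other list with the highest mean in the group described, Rag1 and the 8 genes most like the fat pattern could be named. The members and lists were chosen with earlier results of these data known.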

Additional observations from a re-analysis of the deposited data

Results flagged for a closer look

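On log2(normalized count + 1), in 5 of 19 combinations of a gene and a host 1 of the 6 tumors stood further from its neighbour, relative to the whole range, than Dixon's 95% critical value of 0.625 allows. For values without ties chance marks about 1 in 20, a rate that does not hold for Plin1 and Cidec in wild-type tumors, where the other 5 tumors are all at 0. Wild-type tumor 3 of day 46 was highest in 3 of them, with Plin1 at 7.53, Cidec at 13.8 and Retn at 18.2 normalized counts, on 12, 22 and 29 reads. The same tumor had the most Adipoq of all 12. Among tumors labelled RAG1-/-, tumor 3 of day 23 was lowest in Retn, at 1.33 normalized counts in the deepest library, and tumor 2 of day 23 was lowest in Pparg, at 2.13 normalized counts on 1 read in the shallowest library.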

How the results depend on the processing

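The calls of the 10 genes kept their side of the threshold under most alternatives. The exceptions were Cfd between tumors and MC38 cells, which did not pass with a pseudocount of 5 (log2 difference 2.52, adjusted p = 0.0921), with no filter (adjusted p = 0.0909) or by edgeR (adjusted p = 0.0817), and the single libraries named beside Cfd, Retn, Fabp4, Cidec and Lipe. The host difference of Fabp4 turned negative by edgeR (-0.11) and DESeq2 (-0.13), and leaving out single tumors moved it between -0.25 and 0.38, that of Cfd between -1.95 and 0.0088 and that of Pparg between -0.51 and 0.26, never past the threshold. The cause was not tested. Same-numbered tumors are different mice and their deviations correlated at -0.236 to 0.246 (18 pairs, median 0.0125), so the numbers do not pair the samples. With the replicate number as a block, Cfd differed from MC38 by 4.22 (adjusted p = 0.0638), 2 in place of 3 genes of the set were called there, and 10 of 10 remained lower in MC38 than in skin. DESeq2 gave 8 of 9 genes lower in tumors than in skin, with Cfd left without an adjusted p.

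Over all genes, DESeq2 called 194 higher and 89 lower between hosts, against 84 and 21 by limma, and 158 and 81 on day 23, against 34 and 7. Between days it called 25 and 16 in wild-type tumors and 90 and 116 with the RAG1-/- label, against 0 by limma. Without a filter 9 were lower between hosts, and on day 23 there were 18 higher and 4 lower. edgeR gave 17 higher on day 23. Leaving out 1 library gave 1827 to 2338 higher and 4031 to 5542 lower genes for MC38 against skin, with 6 to 10 of the set lower. It gave 1678 to 2853 higher and 414 to 1585 lower for tumors against MC38, with 2 to 3 of the set higher and 0 to 1 lower. For hosts it gave 57 to 140 higher and 7 to 34 lower, on day 23 4 to 55 and 1 to 5, between wild-type days 0 to 5 and 0 to 2, and between days with the RAG1-/- label 0 to 3 and 0 to 35. Where an arm kept 1 library, it was assumed to vary like the other groups. At these depths a level under 1.33 to 6.38 normalized counts could not be told from 0, which covers Adipoq, Plin1, Plin4, Lep and Cidec in most tumors.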
